A study of Mus musculus with 9 samples.

Results

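The cytochrome P450 and glutathione transferase genes of mouse skin were followed across 9 RNA sequencing libraries. Members were chosen by a rule on gene names alone, which was set with earlier results of these data known. They are the genes named Cyp with a family number, a letter and a gene number, those named Gst of the alpha, kappa, mu, omega, pi, theta and zeta classes, and Mgst2 and Mgst3. Pseudogene names were left out. The rule found 118 of the 49585 genes in the tables, 94 of them P450 genes and 24 transferase genes.

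The libraries were made from skin of 3 kinds of mice, with 3 libraries in each group. The first group is labelled IL-6 -/- on the C57BL/6 strain, meaning mice without interleukin-6 (IL-6), an inflammatory cytokine. The second is wild-type BALB/c and the third, the control, is wild-type C57BL/6. Every mouse came from Jackson Laboratory at an age of 4 to 5 weeks. All were 6 weeks old when the experiment began after an acclimation of 2 weeks, had their fur shaved on day 0, and were given nothing further before skin was taken on day 8. Sex and body site are not stated in the labels used here, nor is the deleted part of Il6. Xist, which is transcribed from the inactive X chromosome of female cells, had 0, 2 and 5 reads in the IL-6 KO-labelled libraries, 3, 130 and 2 in BALB/c and 0 in each C57BL/6 library. BALB/c replicate 2 thus stood apart from all other libraries. The protocol names 6 IL-6-deficient mice for 3 libraries, and no label links a library to 1 animal, so the p-values below measure the spread between libraries, part of which may be technical.

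Cytochromes P450 are heme enzymes that insert 1 oxygen atom into fatty compounds, and they draw electrons from a reductase such as Por. Some clear foreign chemicals, and others make or break down retinoic acid, vitamin D, steroids, sterols and fatty acid signals. Glutathione transferases join reactive compounds to the tripeptide glutathione so that cells can export them. In skin these enzymes are known for handling chemicals at the surface, for setting local retinoid levels, and for supplying lipids of the barrier.

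Il6 itself had 6, 24 and 1 exon reads in the IL-6 KO-labelled libraries, against 0, 2 and 0 in BALB/c and 2, 1 and 0 in C57BL/6. The reads go against that label, so every direction given for these libraries rests on the label alone. Total exon reads were 3843953 to 4476346 in the IL-6 KO-labelled libraries, 6115739 to 6242332 in BALB/c and 6083876 to 6882193 in C57BL/6. Skin markers were present throughout, with 6 of 6 keratinocyte genes tested and a summed level, in CPM (reads scaled to library size), of 7077 to 23563 in the IL-6 KO-labelled libraries, 19189 to 22429 in BALB/c and 12636 to 19730 in C57BL/6. Of these 6 genes, 2 were lower than in BALB/c and 0 were called against C57BL/6. The 5 fibroblast markers summed to 3287 to 9799 CPM in the IL-6 KO-labelled libraries, with 0 called against either strain. They summed to 2410 to 8380 CPM in BALB/c and 5688 to 35202 CPM in C57BL/6. The IL-6 KO-labelled libraries also stood apart in markers of other cell types. Their 10 hair matrix and shaft markers summed to 27485, 7174 and 21701 CPM, against 27.1 to 45.5 CPM in BALB/c and 31.4 to 307 CPM in C57BL/6. Their 6 skeletal muscle markers summed to 4725 to 5725 CPM, against 17477 to 35968 CPM in BALB/c and 35681 to 66495 CPM in C57BL/6. Their 5 melanocyte markers summed to 713, 63.9 and 811 CPM, against 8.65 to 15.6 CPM in BALB/c and 14.9 to 22.4 CPM in C57BL/6. These 3 lists were called in full against both strains, hair and melanocyte markers higher and muscle markers lower. Of 4 endothelial markers 3 were lower than in C57BL/6 and 0 called against BALB/c, and of 5 adipocyte markers 3 were lower than in BALB/c and 0 called against C57BL/6. The endothelial sum was 109 to 136 CPM in the IL-6 KO-labelled libraries, 90.2 to 196 CPM in BALB/c and 217 to 355 CPM in C57BL/6, and the adipocyte sum 574 to 1395 CPM in the IL-6 KO-labelled libraries, 1363 to 6117 CPM in BALB/c and 1247 to 1796 CPM in C57BL/6. The part of these shifts in the results below was not tested, and in whole skin fewer cells of a type and less RNA per cell cannot be told apart.

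Of the 118 members, 37 had 0 reads in every library. A further 29 had some reads but too few for a test, at most 55 over all 9 libraries. The remaining 52 were tested, 32 P450 and 20 transferase genes, and the rarest of them had 61 reads. The Cyp2a, Cyp2c and Cyp4a families, known from liver, were nearly silent. The 4 Cyp2a genes had 6 reads in all, the 15 Cyp2c genes had 14 and the 5 Cyp4a genes had 5, with none tested. In contrast, 6 of 7 mu class and 4 of 4 alpha class transferases were tested, as were 6 of 9 Cyp4f genes. Other liver families had more reads: 577 over 8 Cyp2d genes, 537 over 7 Cyp3a genes and 5099 over 5 Cyp2b genes.

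On the length-corrected scale the authors deposited (RPKM), the strongest members in the IL-6 KO-labelled libraries were Gstp1, at 98.9 ± 20.3, and Mgst3, at 66.9 ± 18.7 (SD, n = 3). Gstp1 is the pi class transferase common in epithelia, and Mgst3 is a membrane-bound transferase and peroxidase. In BALB/c the order began with Cyp2e1, which oxidises ethanol and small solvents, at 146 ± 56.5 RPKM, then Gstp1 at 129 ± 3.02 RPKM. In C57BL/6 it likewise began with Cyp2e1, at 207 ± 59.7 RPKM, then Gstp1 at 112 ± 12.9 RPKM. Cyp2e1 held rank 3 in the IL-6 KO-labelled libraries, at 50.2 ± 61.3 RPKM, an SD larger than its mean. These neighbours at the top of each order overlap within their SDs in BALB/c, whereas Cyp2e1 and Gstp1 differ by more than the SD of either in C57BL/6.

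The summed level of all members averaged 1022 ± 273 CPM in the IL-6 KO-labelled libraries, 1739 ± 250 CPM in BALB/c and 1908 ± 325 CPM in C57BL/6 (SD, n = 3 each). The highest IL-6 KO-labelled library, replicate 2 at 1337 CPM, lay below the lowest library of either strain. Transferases summed to 481 ± 26.4 CPM in the IL-6 KO-labelled libraries, 841 ± 90.8 CPM in BALB/c and 723 ± 87.5 CPM in C57BL/6. P450 genes without Cyp2e1 summed to 431 ± 120 CPM in the IL-6 KO-labelled libraries, 546 ± 23.2 CPM in BALB/c and 672 ± 171 CPM in C57BL/6. Here the groups overlapped. Replicate 2 of the IL-6 KO-labelled libraries had 567 CPM, above BALB/c replicates 2 and 3 (524 and 544 CPM) and C57BL/6 replicate 3 (564 CPM). With Cyp2e1 included it had 825 CPM, above BALB/c replicate 2 at 782 CPM. These sums follow the few abundant members, so the genes are taken 1 by 1 below.

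**Figure D1:**
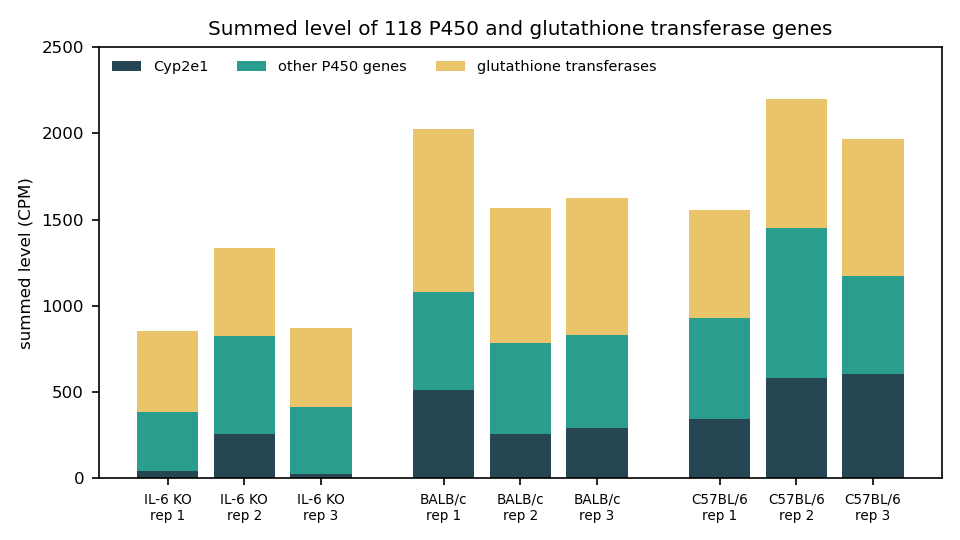
Summed level of the 118 members in each library, in CPM. Each stacked bar is 1 library, divided into Cyp2e1, the other P450 genes and the glutathione transferases. The IL-6 KO-labelled libraries reach 854, 1337 and 874 CPM and lie below every BALB/c and C57BL/6 library, of which the lowest is a C57BL/6 library at 1558 CPM.

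The comparison of the IL-6 KO-labelled libraries with C57BL/6 asks what differs with the label on 1 strain background. Of 52 tested members, 4 were higher and 19 lower in the IL-6 KO-labelled libraries (adjusted p under 0.05, from the quasi-likelihood test of edgeR, Benjamini-Hochberg adjusted over all genes tested). Over all 14415 genes tested, 35.2% were called, 19.2% higher and 16.0% lower, so the 7.69% of members called higher lies under the background and the 36.5% called lower lies above it. The members' median log2 fold change was -0.77, against 0.01 over all genes. Against BALB/c, which differs in strain as well as in the label, 6 members were higher and 24 lower, 46.2% of those tested, where 37.3% of all genes were called, 19.9% higher and 17.4% lower. The median there was -0.79, against 0.01 over all genes. Both comparisons use the same 3 IL-6 KO-labelled libraries, so their calls are not independent. Called against both strains were 12 lower members and 4 higher ones, and 0 members were called in opposite directions. The share of all genes called against both strains was not counted, so these counts have no background beside them. Groups did not overlap in 6 higher and 22 lower members against C57BL/6, or 53.8%, near the 47.5% of all genes that did not overlap. Against BALB/c they did not overlap in 7 higher and 28 lower members, or 67.3%, where 50.7% of all genes did not. DESeq2 called 5 members higher and 17 lower against C57BL/6, where it called 31.2% of its genes, and 7 higher and 24 lower against BALB/c, where it called 32.8%.

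Among the IL-6 KO-labelled libraries, replicate 2 gave the highest value for 42 of 52 tested members, and for 18 of the 19 that were lower than in C57BL/6. Replicate 2 also had the lowest hair marker sum of that group and its highest keratinocyte sum, 23563 CPM. Without it, 27 members were lower than in C57BL/6, where 46.1% of all genes were called in either direction. Against BALB/c 31 members were lower, where 47.8% of all genes were called. Without replicate 1 or 3 the count against C57BL/6 was 9 or 8, where 23.1% or 22.1% of all genes were called. Against BALB/c it was 15 or 14, where 24.8% or 22.5% of all genes were called. Without C57BL/6 replicate 1 or 2 the count against C57BL/6 was 12 or 10, where 26.9% or 30.7% of all genes were called. Without BALB/c replicate 2, the library with high Xist reads, 14 members were lower than in C57BL/6 and 19 lower than in BALB/c. Of all genes 31.3% and 25.8% were then called. Leaving out BALB/c replicate 1 or 3 gave 18 or 15 lower members against C57BL/6 (35.3% or 30.9% of all genes called). Against BALB/c each gave 18 (30% or 27.9%). In these fits 53 or 54 members were tested, and the shares of all genes count both directions. Those shares are therefore no direct background for the counts of lower members. No named gene that was called turned direction in these fits.

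**Figure D2:**
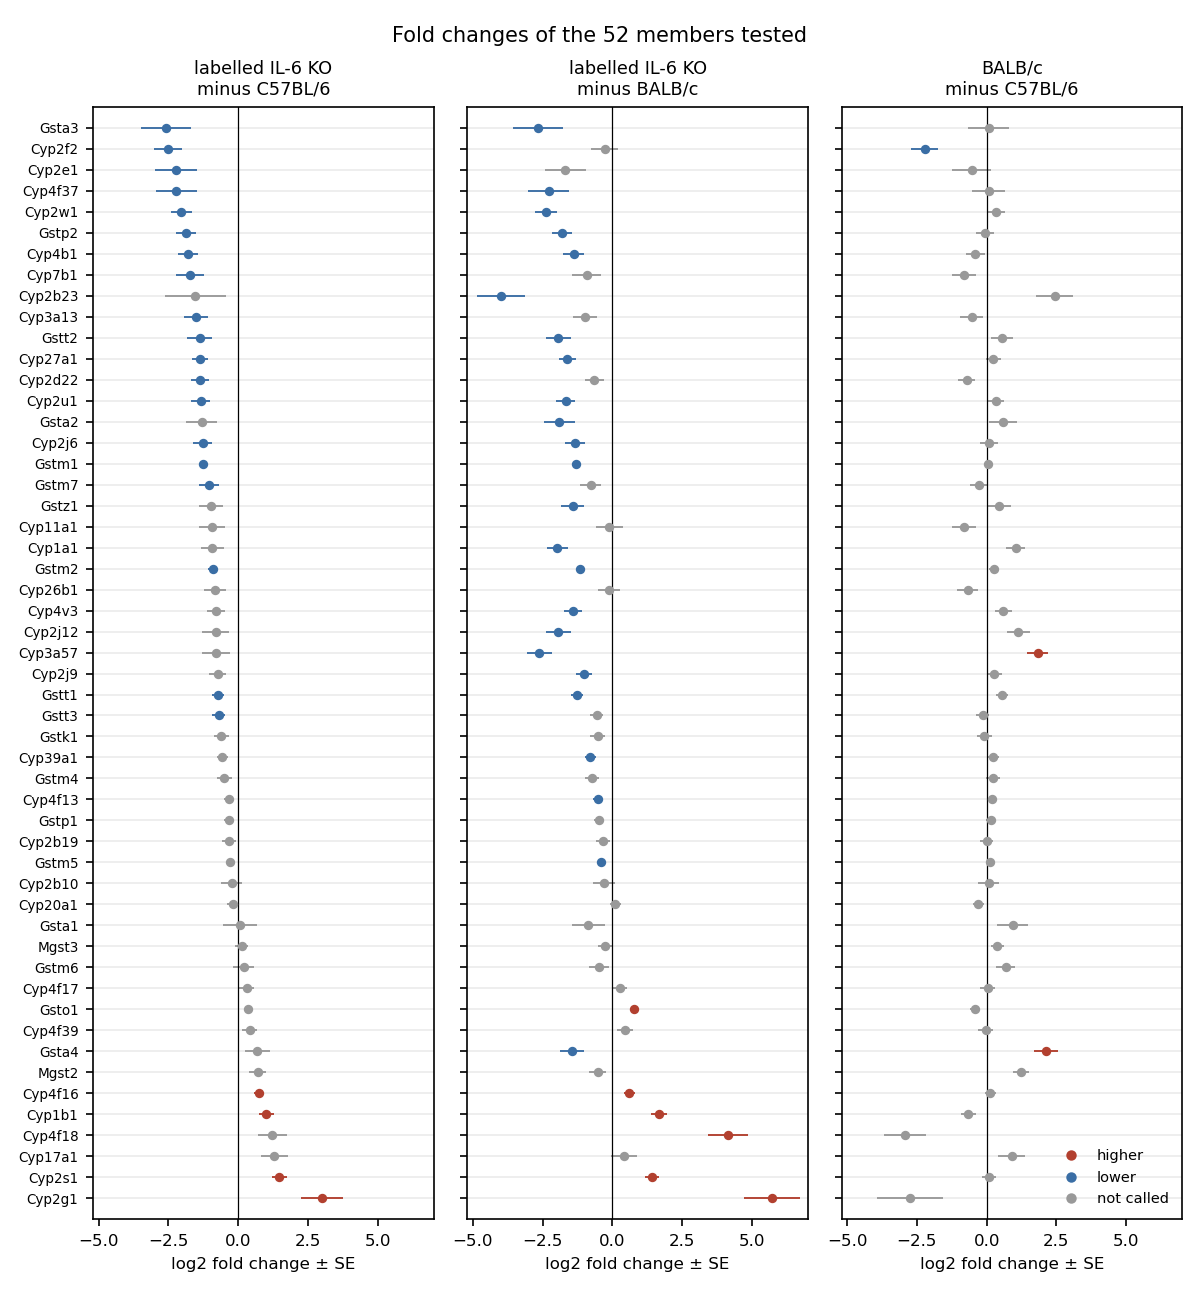
Log2 fold change ± SE (horizontal axis) of the 52 tested members (rows, ordered by the first panel) in 3 comparisons, with the IL-6 KO-labelled libraries minus C57BL/6, the same libraries minus BALB/c, and BALB/c minus C57BL/6. Red marks members called higher, blue those called lower and grey those not called. The first 2 panels hold 19 and 24 blue points, while the last has 1 blue and 2 red points.

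Retinoic acid, the vitamin A hormone of epidermis and hair, is cleared by the Cyp26 enzymes. Cyp26b1 was the only one tested. It had 22.2, 61.9 and 32.7 CPM in the IL-6 KO-labelled libraries, 36.3, 45.2 and 47.4 CPM in BALB/c and 55.0, 106 and 45.7 CPM in C57BL/6. All 3 groups overlapped, and the log2 fold change against C57BL/6 was -0.82 ± 0.39 (adjusted p = 0.132). Without replicate 2 of the IL-6 KO-labelled libraries it was called lower than in C57BL/6 (adjusted p = 0.0165). Cyp26a1 had 8 reads over all 9 libraries and Cyp26c1 had 3. Of 19 tested genes of retinoid storage, transport, synthesis and reception, 6 were higher and 2 lower in the IL-6 KO-labelled libraries than in C57BL/6, while against BALB/c 6 were higher and 2 lower. The 42.1% called lies near the share of all genes in both comparisons (35.2% and 37.3%). Stra6, the cell surface retinol importer, averaged 67.2 ± 47.1 CPM in the IL-6 KO-labelled libraries, 1.72 ± 1.31 CPM in BALB/c and 1.18 ± 0.636 CPM in C57BL/6. Lrat, which esterifies retinol for storage, averaged 12.4 ± 5.77 CPM in the IL-6 KO-labelled libraries and 1.95 ± 0.416 CPM in C57BL/6 (log2 fold change 2.66 ± 0.39, adjusted p = 0.00127). Aldh1a1, which makes retinoic acid from retinal, was lower, at 32.9 ± 9.51 CPM in the IL-6 KO-labelled libraries and 136 ± 23.2 CPM in C57BL/6 (-2.04 ± 0.29, adjusted p = 0.00103). The hair marker sums given above move with the libraries in which Stra6 and Lrat were higher, and their part was not tested.

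Of the vitamin D enzymes, Cyp27a1 was the only one tested. It is the mitochondrial sterol hydroxylase that also acts on vitamin D. Cyp27a1 had 10.8, 26.7 and 13.4 CPM in the IL-6 KO-labelled libraries, 58.9, 53.5 and 45.3 CPM in BALB/c and 49.5, 35.9 and 47.7 CPM in C57BL/6. Every IL-6 KO-labelled library lay below every other library. Relative to C57BL/6 its log2 fold change was -1.37 ± 0.30 (adjusted p = 0.00692), and relative to BALB/c it was -1.62 ± 0.30 (adjusted p = 0.00323). The enzymes that activate and destroy the hormone were rare: Cyp2r1 had 50 reads, Cyp27b1 had 36 and Cyp24a1 had 2 over all 9 libraries. The vitamin D receptor gene Vdr, which keratinocytes and hair follicles use, was higher, at 190 ± 53.6 CPM in the IL-6 KO-labelled libraries, 52.3 ± 7.38 CPM in BALB/c and 55.6 ± 9.29 CPM in C57BL/6 (1.77 ± 0.23 against C57BL/6, adjusted p = 7.79e-04).

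Of 2 tested steroid-making P450 genes, none was called in any comparison. Cyp11a1, which cuts the cholesterol side chain, had 2.38, 2.24 and 0.849 CPM in the IL-6 KO-labelled libraries, 1.75, 1.83 and 2.27 CPM in BALB/c and 4.30, 4.18 and 1.86 CPM in C57BL/6. C57BL/6 replicates 1 and 2 lay above the rest, and replicate 3 fell among the other groups. Cyp17a1, which makes androgen precursors, averaged 7.46 ± 2.71 CPM in the IL-6 KO-labelled libraries, 5.69 ± 0.401 CPM in BALB/c and 3.07 ± 1.94 CPM in C57BL/6, with an adjusted p of 0.0667 for the first group against C57BL/6 (0.0468 with DESeq2). The enzymes of later steps were nearly absent, with 3 reads of Cyp21a1, 1 of Cyp11b1 and 0 of Cyp11b2 and Cyp19a1. Of 12 tested partner genes of steroid and vitamin D metabolism, 4 were higher and 3 lower in the IL-6 KO-labelled libraries than in C57BL/6 (58.3%, where 35.2% of all genes were called), while against BALB/c 3 were higher and 5 lower (66.7%, where 37.3% were). Hsd17b7, a steroid and cholesterol synthesis dehydrogenase, averaged 61.8 ± 8.10 CPM in the IL-6 KO-labelled libraries and 24.7 ± 4.49 CPM in C57BL/6 (1.32 ± 0.18, adjusted p = 9.97e-04).

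The sterol and bile acid group had 2 tested members. Cyp7b1, an oxysterol hydroxylase, had 0.264, 1.83 and 0.849 CPM in the IL-6 KO-labelled libraries, 1.43, 2.00 and 2.43 CPM in BALB/c and 3.69, 2.98 and 3.71 CPM in C57BL/6. It was lower in the IL-6 KO-labelled libraries than in C57BL/6 (-1.73 ± 0.49, adjusted p = 0.0233), with no overlap. That call ended without C57BL/6 replicate 1 or 3 or without replicate 1 or 3 of the IL-6 KO-labelled libraries (adjusted p between 0.0626 and 0.0906). Cyp39a1, another oxysterol hydroxylase, averaged 14.6 ± 1.80 CPM in the IL-6 KO-labelled libraries, 25.4 ± 5.73 CPM in BALB/c and 21.6 ± 2.59 CPM in C57BL/6. It was lower than in BALB/c (-0.80 ± 0.20, adjusted p = 0.0143), and the call ended without BALB/c replicate 3 (adjusted p = 0.0533) or replicate 3 of the IL-6 KO-labelled libraries (adjusted p = 0.0635). The liver and brain members were rare, with 52 reads of Cyp46a1, 20 of Cyp8b1 and 0 of Cyp7a1.

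Cyp1a1 and Cyp1b1 are textbook targets of the aryl hydrocarbon receptor Ahr, which binds DNA at the letters GCGTG after sensing planar chemicals and tryptophan products. Both were measured, while Cyp1a2, the liver enzyme, had 0 reads. Their promoters are shown because these genes stood on opposite sides of the same comparison. The sequences run over the 250 bases before the start site given by RefSeq on GRCm38.p6, on the gene's own strand. Cyp1a1 lies on the plus strand at chr9:57697363-57697612 and Cyp1b1 on the minus strand at chr17:79715062-79715311. Capitals mark GCGTG, or CACGC where it lies on the other strand.
Cyp1a1: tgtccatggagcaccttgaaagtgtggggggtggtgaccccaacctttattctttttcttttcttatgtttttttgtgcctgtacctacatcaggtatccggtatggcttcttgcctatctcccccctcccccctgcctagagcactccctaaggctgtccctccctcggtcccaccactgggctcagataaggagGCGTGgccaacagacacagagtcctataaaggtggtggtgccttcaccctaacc
Cyp1b1: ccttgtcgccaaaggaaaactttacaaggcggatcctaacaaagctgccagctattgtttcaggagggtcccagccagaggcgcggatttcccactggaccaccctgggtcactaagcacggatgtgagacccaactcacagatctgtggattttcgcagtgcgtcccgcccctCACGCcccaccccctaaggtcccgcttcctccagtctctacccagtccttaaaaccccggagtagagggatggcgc
Each window holds the letters once, 54 bases before the start in Cyp1a1 and 76 before it in Cyp1b1. The letters are common: over windows of 300 bases they occurred in 32.4% of all 32851 promoters and in 22.1% of the 113 windows of the 95 members found in the table. A match in letters says nothing about binding.

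Cyp1b1 had 48.9, 52.1 and 43.9 CPM in the IL-6 KO-labelled libraries, 19.6, 10.5 and 15.4 CPM in BALB/c and 22.6, 32.4 and 16.9 CPM in C57BL/6. Every IL-6 KO-labelled library lay above every other library. Relative to C57BL/6 its log2 fold change was 1.01 ± 0.26 (adjusted p = 0.0164), and relative to BALB/c it was 1.67 ± 0.27 (adjusted p = 0.00182). The call against C57BL/6 ended without C57BL/6 replicate 1 (adjusted p = 0.0587) or 3 (adjusted p = 0.0608). Cyp1a1 had 1.06, 2.24 and 0.849 CPM in the IL-6 KO-labelled libraries, 5.41, 4.32 and 6.97 CPM in BALB/c and 2.77, 2.68 and 2.60 CPM in C57BL/6. Here every IL-6 KO-labelled library lay below every other library. Relative to BALB/c its log2 fold change was -1.97 ± 0.39 (adjusted p = 0.00437), and relative to C57BL/6 it was -0.93 ± 0.40 (adjusted p = 0.102), and without replicate 2 of the IL-6 KO-labelled libraries it was called lower than in C57BL/6 as well (adjusted p = 0.0168). Of 7 tested sensor genes of foreign chemicals, 0 were higher and 2 lower against each strain, or 28.6% lower. Of all genes 16.0% were lower and 19.2% higher against C57BL/6, and 17.4% lower and 19.9% higher against BALB/c. Ahrr, the Ahr repressor and itself an Ahr target, averaged 0.838 ± 1.04 CPM in the IL-6 KO-labelled libraries, 4.02 ± 1.03 CPM in BALB/c and 3.14 ± 0.545 CPM in C57BL/6. The Ahrr call against C57BL/6 had an adjusted p of 0.0494 and ended without any 1 library other than replicate 2 of the IL-6 KO-labelled libraries (adjusted p up to 0.154). Against BALB/c the Ahrr call (-2.17 ± 0.62, adjusted p = 0.0229) ended without BALB/c replicate 2 or 3 or replicate 1 or 3 of the IL-6 KO-labelled libraries (adjusted p between 0.0602 and 0.0802). Keap1, which holds back the antioxidant factor Nfe2l2, averaged 50.0 ± 3.92 CPM in the IL-6 KO-labelled libraries, 71.5 ± 4.75 CPM in BALB/c and 83.6 ± 5.31 CPM in C57BL/6 (-0.74 ± 0.12 against C57BL/6, adjusted p = 0.00156).

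**Figure D3:**
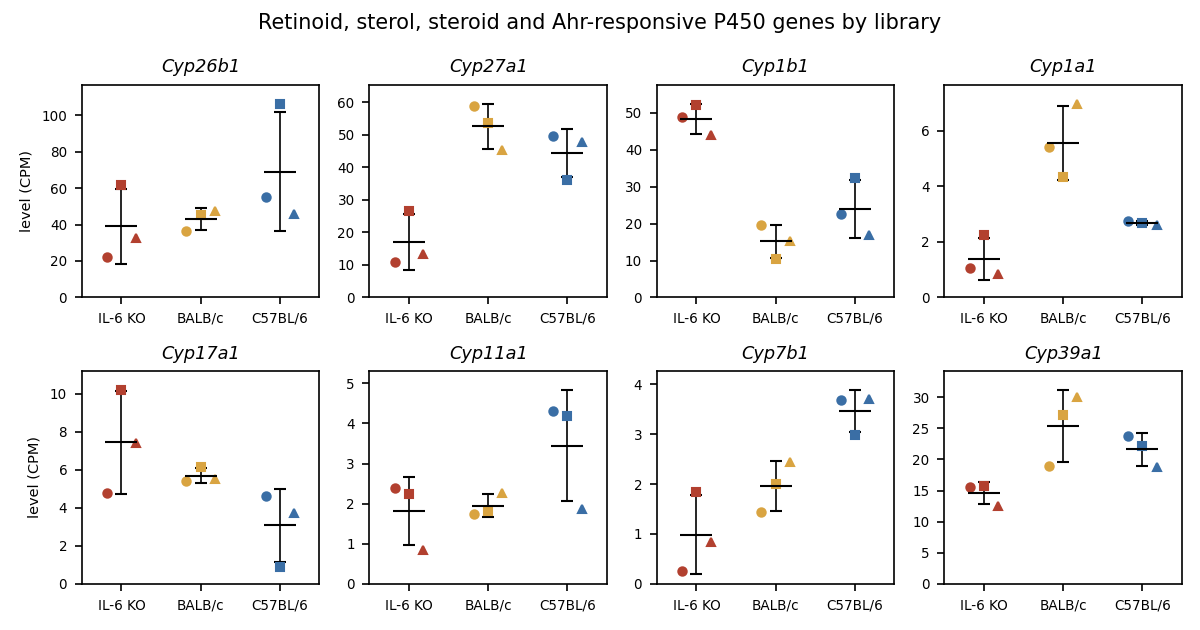
Level in CPM of 8 P450 genes of retinoid, sterol and steroid metabolism and of the Ahr response. Points are libraries (circle, square and triangle for replicates 1, 2 and 3) and bars the mean ± SD of 3, with the IL-6 KO-labelled libraries on the left, BALB/c in the middle and C57BL/6 on the right. Cyp27a1 and Cyp1a1 lie below both strains in the IL-6 KO-labelled libraries and Cyp1b1 lies above them, without overlap.

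The Cyp2 family holds 48 of the 94 P450 genes. Of 13 tested, 2 were higher and 6 lower in the IL-6 KO-labelled libraries than in C57BL/6, while against BALB/c 2 were higher and 6 lower, 61.5% in each case (35.2% and 37.3% of all genes). Cyp2e1 (chromosome 7, 140763739 to 140774987, GRCm38) had 41.8, 258 and 27.0 CPM in the IL-6 KO-labelled libraries, 510, 258 and 289 CPM in BALB/c and 347, 584 and 607 CPM in C57BL/6. Replicate 2 of the IL-6 KO-labelled libraries reached the lowest BALB/c library, while replicates 1 and 3 lay far below every other library. Its log2 fold change against C57BL/6 was -2.23 ± 0.74 (adjusted p = 0.0421). That call ended without replicate 1 or 3 of the IL-6 KO-labelled libraries, any C57BL/6 library, or BALB/c replicate 2 or 3 (adjusted p between 0.0568 and 0.122). Against BALB/c Cyp2e1 was not called (-1.69 ± 0.73, adjusted p = 0.0953), and without replicate 2 of the IL-6 KO-labelled libraries it was (adjusted p = 3.44e-04). Cyp2e1 is best known from liver, whose 6 markers summed to 4.68 to 10.8 CPM in the IL-6 KO-labelled libraries, 1.95 to 2.83 CPM in BALB/c and 2.31 to 3.88 CPM in C57BL/6. Of these markers Apoa1 and Fgb had 0 reads in every library and Alb had between 1 and 19, while Cps1 had 27, 19 and 50 in the IL-6 KO-labelled libraries and 0 in all others.

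Cyp2f2, known as the naphthalene-oxidising P450 of lung club cells, set C57BL/6 apart. It had 17.7, 39.9 and 17.8 CPM in the IL-6 KO-labelled libraries, 33.9, 29.6 and 28.9 CPM in BALB/c and 63.3, 254 and 114 CPM in C57BL/6. All 3 C57BL/6 libraries lay above the rest, and C57BL/6 replicate 2 stood well above the other 2. Cyp2f2 was lower in the IL-6 KO-labelled libraries than in C57BL/6 (-2.51 ± 0.50, adjusted p = 0.00469) and did not pass the test against BALB/c (-0.28 ± 0.49, adjusted p = 0.676).

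Other Cyp2 genes split in direction. Cyp2s1, an epithelial P450 inducible by dioxin, had 37.8, 19.1 and 34.0 CPM in the IL-6 KO-labelled libraries, 10.3, 10.3 and 13.6 CPM in BALB/c and 10.6, 10.6 and 11.3 CPM in C57BL/6. It was higher in every IL-6 KO-labelled library than in any other, by 1.48 ± 0.25 against C57BL/6 (adjusted p = 0.00236) and, compared with BALB/c, 1.40 ± 0.25 (adjusted p = 0.00292) on the log2 scale. Cyp2j6, a fatty acid epoxygenase, averaged 21.1 ± 12.5 CPM in the IL-6 KO-labelled libraries, 53.9 ± 4.26 CPM in BALB/c and 51.2 ± 11.9 CPM in C57BL/6. It was lower than in C57BL/6 (-1.27 ± 0.34, adjusted p = 0.0183) and BALB/c (-1.34 ± 0.34, adjusted p = 0.0139). The Cyp2j6 call against C57BL/6 ended without C57BL/6 replicate 2 or replicate 1 or 3 of the IL-6 KO-labelled libraries (adjusted p between 0.0555 and 0.0745), and the call against BALB/c ended without replicate 3 of those libraries (adjusted p = 0.0595). Cyp2b19, the keratinocyte arachidonic acid epoxygenase, had 48.4, 94.5 and 61.6 CPM in the IL-6 KO-labelled libraries, 87.6, 82.8 and 86.8 CPM in BALB/c and 83.9, 108 and 65.2 CPM in C57BL/6. The groups overlapped and its adjusted p was 0.328 against C57BL/6 and 0.323 against BALB/c. Without replicate 2 of the IL-6 KO-labelled libraries, Cyp2b19 was called lower against C57BL/6 (adjusted p = 0.033) and BALB/c (adjusted p = 0.0324). Cyp2b10, a target of the nuclear receptor CAR in liver, had an adjusted p of 0.667 against C57BL/6 and 0.552 against BALB/c, and without that replicate it was called lower too (adjusted p = 0.0364 and 0.0253).

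Several rarer Cyp2 members were called as well. Cyp2w1 had 0.529, 1.83 and 0.849 CPM in the IL-6 KO-labelled libraries, 6.53, 5.65 and 5.35 CPM in BALB/c and 4.77, 4.77 and 4.27 CPM in C57BL/6. It was lower than in C57BL/6 (-2.04 ± 0.38, adjusted p = 0.00365) and BALB/c (-2.38 ± 0.38, adjusted p = 0.00163), with no overlap. Cyp2u1, which hydroxylates long-chain fatty acids, was lower against C57BL/6 (-1.34 ± 0.34, adjusted p = 0.0138, or 0.0666 without replicate 3 of the IL-6 KO-labelled libraries) and BALB/c (-1.68 ± 0.33, adjusted p = 0.00455). Cyp2d22 was lower than in C57BL/6 (-1.36 ± 0.32, adjusted p = 0.0108), at 6.31 ± 2.95 CPM in the IL-6 KO-labelled libraries and 16.3 ± 3.73 CPM in C57BL/6. Cyp2g1, described from rat olfactory mucosa, had 10, 87 and 41 reads in the IL-6 KO-labelled libraries, with 0, 3 and 0 in BALB/c and 9, 11 and 3 in C57BL/6. Scaled to library size, that is 63.4 times as much as in BALB/c, with a 95% counting interval of 21.2 to 311 that covers counting error only (adjusted p = 0.00252). Against C57BL/6 its log2 fold change was 2.99 ± 0.75 (adjusted p = 0.0138), a call that ended without C57BL/6 replicate 3 (adjusted p = 0.0591). Cyp2b23 had 1, 0 and 1 reads in the IL-6 KO-labelled libraries, with 11, 17 and 22 in BALB/c and 7, 1 and 1 in C57BL/6. It was lower in the IL-6 KO-labelled libraries than in BALB/c (adjusted p = 0.0069), by 18.2 times with a counting interval of 4.77 to 154. Cyp2j12 was lower than in BALB/c (-1.94 ± 0.46, adjusted p = 0.0103), as was Cyp2j9 (-1.02 ± 0.29, adjusted p = 0.0227), whose call ended without BALB/c replicate 2 or 3 or replicate 1 or 3 of the IL-6 KO-labelled libraries (adjusted p between 0.0548 and 0.0899).

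The Cyp3 family, which handles most drugs in the liver, had 2 of 7 members tested. Cyp3a13 averaged 3.64 ± 2.36 CPM in the IL-6 KO-labelled libraries, 7.39 ± 2.32 CPM in BALB/c and 10.7 ± 2.71 CPM in C57BL/6, and was lower than in C57BL/6 (-1.53 ± 0.43, adjusted p = 0.022). That call ended without C57BL/6 replicate 1 or 2 or replicate 1 or 3 of the IL-6 KO-labelled libraries (adjusted p between 0.0501 and 0.0865). Cyp3a57 had 0.264, 1.43 and 0.849 CPM in the IL-6 KO-labelled libraries, 5.25, 4.82 and 6.49 CPM in BALB/c and 1.69, 1.79 and 1.11 CPM in C57BL/6. It was lower in the IL-6 KO-labelled libraries than in BALB/c (-2.62 ± 0.44, adjusted p = 0.00218).

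Cyp4 enzymes hydroxylate the far end of fatty acid chains. Of 8 tested, 1 was higher and 2 lower in the IL-6 KO-labelled libraries than in C57BL/6, a share of 37.5% near the 35.2% of all genes, while against BALB/c 2 were higher and 4 lower, or 75% where 37.3% of all genes were called. In both comparisons these counts include Cyp4f16 as higher and Cyp4f37 as lower. They are near-identical copies whose added reads were not called, as given below. Cyp4f39, the mouse counterpart of human CYP4F22, which makes the ultra-long chains of barrier acylceramides, had 26.2, 28.1 and 27.6 CPM in the IL-6 KO-labelled libraries, 15.4, 21.3 and 23.2 CPM in BALB/c and 19.8, 28.8 and 12.6 CPM in C57BL/6. It did not pass the test against C57BL/6 (0.41 ± 0.27, adjusted p = 0.263) or BALB/c (0.45 ± 0.27, adjusted p = 0.219). Cyp4b1, a fatty acid hydroxylase known from lung, had 6.35, 19.7 and 8.07 CPM in the IL-6 KO-labelled libraries, 39.5, 22.8 and 28.9 CPM in BALB/c and 36.1, 43.5 and 41.4 CPM in C57BL/6. All IL-6 KO-labelled libraries lay below the rest, with a log2 fold change of -1.80 ± 0.37 against C57BL/6 (adjusted p = 0.00568) and, compared with BALB/c, -1.40 ± 0.37 (adjusted p = 0.0171). The call against BALB/c ended without BALB/c replicate 1 or replicate 1 or 3 of the IL-6 KO-labelled libraries (adjusted p between 0.0531 and 0.0704). Cyp4v3, the counterpart of human CYP4V2, was lower than in BALB/c (-1.41 ± 0.32, adjusted p = 0.00875) and not called against C57BL/6 (-0.81 ± 0.32, adjusted p = 0.0775). Without replicate 2 of the IL-6 KO-labelled libraries Cyp4v3 was called lower than in C57BL/6 (-1.35, adjusted p = 0.00217). Cyp4f13 was lower than in BALB/c by a smaller margin (-0.53 ± 0.18, adjusted p = 0.0473), and that call ended without BALB/c replicate 1 or 2, C57BL/6 replicate 1 or 2, or any IL-6 KO-labelled library (adjusted p between 0.0516 and 0.116). The Cyp4f13 call also ended with DESeq2 (adjusted p = 0.0518) and in a model of only the groups compared (adjusted p = 0.0725). Cyp4f18, which inactivates leukotrienes in neutrophils, had 8, 31 and 19 reads in the IL-6 KO-labelled libraries, with 0, 3 and 1 in BALB/c and 12, 9 and 12 in C57BL/6. It was higher in the IL-6 KO-labelled libraries than in BALB/c (4.14 ± 0.71, adjusted p = 0.00228) and did not pass the test against C57BL/6 (1.22 ± 0.53, adjusted p = 0.098).

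Glutathione transferases were lower or not called against C57BL/6: 0 of 20 were higher and 8 lower. The 40% called lower lies above the 16.0% of all genes called lower, while 19.2% of all genes were called higher. Against BALB/c, 1 was higher and 10 lower, or 55% where 37.3% of all genes were called. By direction that is 5% higher and 50% lower, where 19.9% and 17.4% of all genes were. The mu class had the largest summed level of them, 144 ± 19.1 CPM in the IL-6 KO-labelled libraries, 292 ± 8.78 CPM in BALB/c and 270.0 ± 17.9 CPM in C57BL/6. Gstm1 (chromosome 3, 108012255 to 108017973) had 53.2, 70.0 and 51.4 CPM in the IL-6 KO-labelled libraries, 145, 143 and 143 CPM in BALB/c and 128, 153 and 140 CPM in C57BL/6. Every IL-6 KO-labelled library lay below every other library, and the BALB/c libraries were nearly equal. Relative to C57BL/6 its log2 fold change was -1.27 ± 0.15 (adjusted p = 5.22e-04), and relative to BALB/c it was -1.30 ± 0.15 (adjusted p = 4.31e-04), and it remained called in each of 16 alternative fits of either comparison. Gstm2 averaged 33.5 ± 7.58 CPM in the IL-6 KO-labelled libraries, 74.7 ± 4.91 CPM in BALB/c and 63.0 ± 5.28 CPM in C57BL/6 (-0.90 ± 0.17 against C57BL/6, adjusted p = 0.00326). Gstm5 stood closer, at 40.0 ± 5.60 CPM in the IL-6 KO-labelled libraries, 52.9 ± 4.08 CPM in BALB/c and 48.9 ± 2.75 CPM in C57BL/6. It was called against BALB/c (-0.40 ± 0.13, adjusted p = 0.0398), a call that ended without any BALB/c library, C57BL/6 replicate 2 or replicate 1 or 3 of the IL-6 KO-labelled libraries (adjusted p between 0.0501 and 0.153). Gstm7 was lower than in C57BL/6 (-1.06 ± 0.36, adjusted p = 0.0453), but that call ended without any 1 library other than replicate 2 of the IL-6 KO-labelled libraries (adjusted p between 0.0519 and 0.158) and had an adjusted p of 0.0729 with DESeq2. Gstm4 and Gstm6 were not called in any comparison, although Gstm4 was lower than in BALB/c when uniquely mapped reads were used (adjusted p = 0.0435, against 0.0548).

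Of 3 tested theta class genes, 3 were lower than in C57BL/6 and 2 lower than in BALB/c, where 16.0% and 17.4% of all genes were lower. Gstt1, which acts on small halogenated solvents, had 11.9, 16.9 and 9.55 CPM in the IL-6 KO-labelled libraries, 35.5, 29.3 and 28.4 CPM in BALB/c and 23.8, 21.2 and 18.4 CPM in C57BL/6. The groups did not overlap, and relative to BALB/c the log2 fold change was -1.28 ± 0.22 (adjusted p = 0.00233), and relative to C57BL/6 it was -0.72 ± 0.22 (adjusted p = 0.0301). Gstt2 was lower against BALB/c (-1.93 ± 0.44, adjusted p = 0.0087) and C57BL/6 (-1.37 ± 0.45, adjusted p = 0.0383). Gstt3, of whose reads only 27.6% mapped uniquely, was lower against C57BL/6 (-0.71 ± 0.24, adjusted p = 0.0436) and did not pass the test against BALB/c (-0.57 ± 0.24, adjusted p = 0.0886), although without replicate 2 of the IL-6 KO-labelled libraries it did (adjusted p = 0.0142). The calls of Gstt1, Gstt2 and Gstt3 against C57BL/6 each ended without C57BL/6 replicate 1 or 2 or replicate 1 or 3 of the IL-6 KO-labelled libraries (adjusted p between 0.0615 and 0.15). That of Gstt2 also ended without C57BL/6 replicate 3 (adjusted p = 0.0788), and that of Gstt3 without any BALB/c library (adjusted p between 0.0539 and 0.0626).

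The alpha class was less uniform. Gsta3, which detoxifies aflatoxin in mouse liver, had 0.264, 5.50 and 1.06 CPM in the IL-6 KO-labelled libraries, 18.3, 14.8 and 12.5 CPM in BALB/c and 2.46, 27.6 and 13.4 CPM in C57BL/6. The first and last groups overlapped, and C57BL/6 alone spanned a wider range than the group means did. Gsta3 was called lower against C57BL/6 (-2.59 ± 0.90, adjusted p = 0.0498) and BALB/c (-2.66 ± 0.90, adjusted p = 0.0432), both at the edge of the threshold. Both Gsta3 calls ended without any BALB/c library, C57BL/6 replicate 3 or replicate 1 or 3 of the IL-6 KO-labelled libraries, and the call against C57BL/6 also ended without C57BL/6 replicate 2 (adjusted p between 0.0604 and 0.177). Gsta2 was lower than in BALB/c (-1.90 ± 0.54, adjusted p = 0.0223), and that call ended without BALB/c replicate 3 or replicate 1 or 3 of the IL-6 KO-labelled libraries (adjusted p between 0.0649 and 0.0733). Without replicate 2 of those libraries the Gsta2 log2 fold change against BALB/c was -3.34 (adjusted p = 8.25e-05), and Gsta2 was called against C57BL/6 as well (-2.75, adjusted p = 2.76e-04), where it was not called with all libraries (-1.32 ± 0.55, adjusted p = 0.0897). Gsta2 has near-identical copies in Gsta1 (97.2% over 870 bases), Gm3776 and Gm10639, so some of its reads cannot be assigned to a single gene. Gsta2 and these copies together had 9, 62 and 20 unscaled reads in the IL-6 KO-labelled libraries. They had 84, 105 and 143 in BALB/c and 60, 73 and 56 in C57BL/6. With the copies added the Gsta2 call against BALB/c held, and Gsta2 was still not called against C57BL/6. The fits that left out a library did not add copies. Gsta4, which clears the lipid aldehyde hydroxynonenal, was lower in the IL-6 KO-labelled libraries than in BALB/c (-1.45 ± 0.42, adjusted p = 0.0242) and did not pass the test against C57BL/6 (0.68 ± 0.45, adjusted p = 0.267). Its call against BALB/c ended without BALB/c replicate 1 or replicate 1 or 3 of the IL-6 KO-labelled libraries (adjusted p between 0.0796 and 0.0917).

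The remaining classes hold 1 or 2 tested members each. Gstz1, the maleylacetoacetate isomerase of tyrosine breakdown, had 39.1, 62.1 and 31.8 CPM in the IL-6 KO-labelled libraries, 208, 75.8 and 75.7 CPM in BALB/c and 64.1, 88.1 and 111 CPM in C57BL/6. Each IL-6 KO-labelled library lay below the others, and BALB/c replicate 1 lay far above its own group. Gstz1 was lower than in BALB/c (-1.43 ± 0.43, adjusted p = 0.0269), a call that ended without BALB/c replicate 1 or replicate 1 or 3 of the IL-6 KO-labelled libraries (adjusted p between 0.0751 and 0.101). Against C57BL/6 Gstz1 was not called (-0.98 ± 0.43, adjusted p = 0.1), although it was without BALB/c replicate 1 (adjusted p = 0.0224) or replicate 2 of the IL-6 KO-labelled libraries (adjusted p = 0.0482). Gsto1, which reduces dehydroascorbate, ran the other way, with 46.5, 57 and 55.2 CPM in the IL-6 KO-labelled libraries, 36.3, 26.6 and 29.4 CPM in BALB/c and 39.0, 47.4 and 37.5 CPM in C57BL/6. It was higher than in BALB/c (0.78 ± 0.16, adjusted p = 0.00508) and did not pass the test against C57BL/6 (0.36 ± 0.16, adjusted p = 0.105), where the groups overlapped. Mgst3 had 97.8, 49.5 and 83.9 CPM in the IL-6 KO-labelled libraries, 81.0, 98.4 and 98.4 CPM in BALB/c and 57.2, 71.4 and 83.9 CPM in C57BL/6. The Mgst3 groups overlapped and it was not called in any comparison, and neither was Gstk1, the mitochondrial and peroxisomal kappa transferase.

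**Figure D4:**
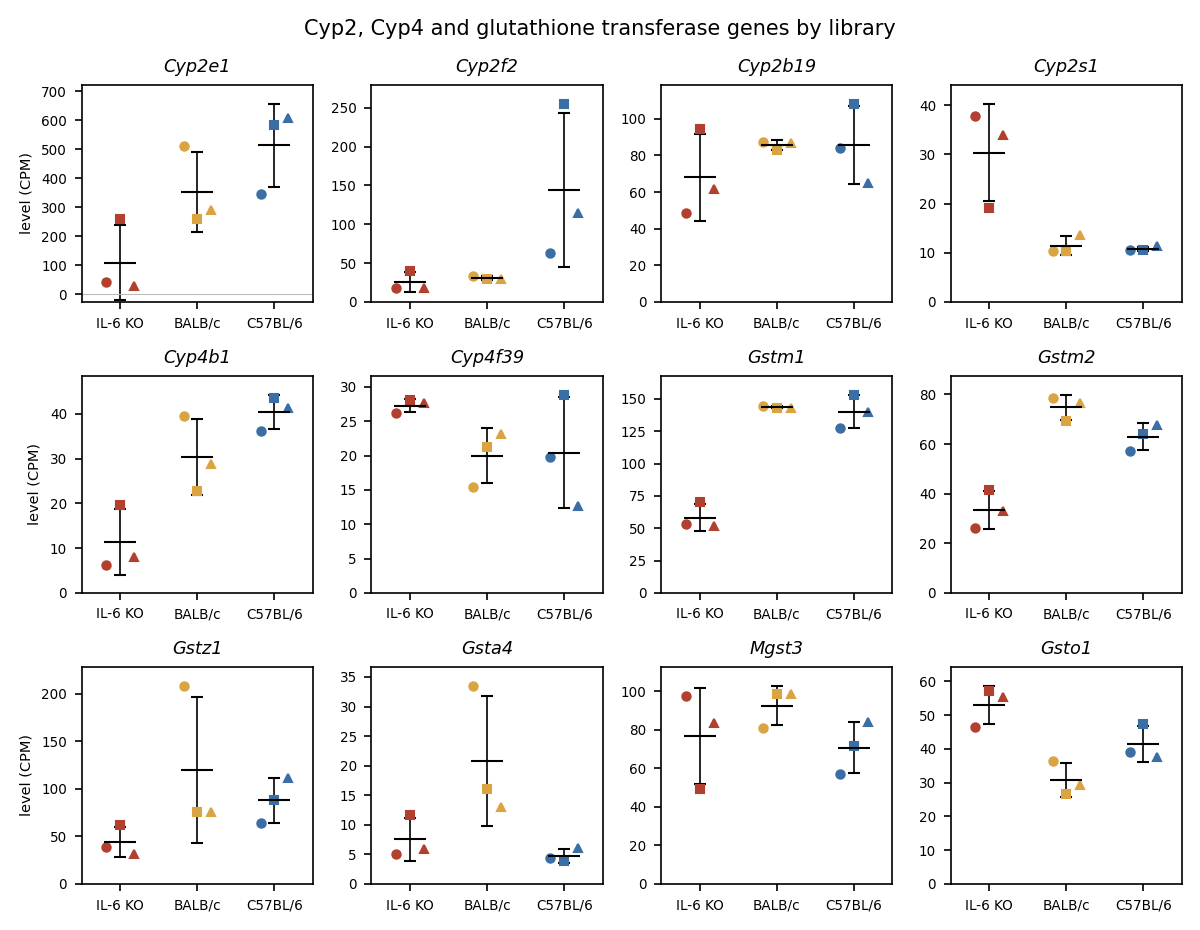
Level in CPM of 12 Cyp2, Cyp4 and glutathione transferase genes. Points are libraries (circle, square and triangle for replicates 1, 2 and 3) and bars the mean ± SD of 3, with the IL-6 KO-labelled libraries on the left, BALB/c in the middle and C57BL/6 on the right. Gstm1, Gstm2 and Cyp4b1 lie below both strains and Cyp2s1 above them in the IL-6 KO-labelled libraries, whereas Cyp2b19 and Mgst3 overlap.

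Glutathione itself is made and recycled by another set of enzymes. Of 16 tested genes of glutathione synthesis, recycling, import and export, 7 were higher and 3 lower in the IL-6 KO-labelled libraries than in C57BL/6 (62.5%, where 35.2% of all genes were called), while against BALB/c 5 were higher and 3 lower (50%, where 37.3% were). Gclc, the catalytic subunit of the first synthesis step, averaged 70.0 ± 22.9 CPM in the IL-6 KO-labelled libraries, 22.0 ± 2.33 CPM in BALB/c and 20.2 ± 2.38 CPM in C57BL/6 (1.79 ± 0.24 against C57BL/6, adjusted p = 9.02e-04). Slc7a11, which imports cystine, averaged 20.5 ± 6.91 CPM in the IL-6 KO-labelled libraries, 0.539 ± 0.407 CPM in BALB/c and 0.315 ± 0.139 CPM in C57BL/6 (5.89 ± 0.51, adjusted p = 4.29e-04). Ggt1, which breaks down glutathione outside cells, averaged 39.2 ± 22.2 CPM in the IL-6 KO-labelled libraries and 0.304 ± 0.307 CPM in C57BL/6 (6.83 ± 0.76, adjusted p = 4.99e-04). Gpx2, a glutathione peroxidase of epithelia, averaged 17.6 ± 5.04 CPM in the IL-6 KO-labelled libraries and 2.68 ± 1.18 CPM in C57BL/6 (2.69 ± 0.40, adjusted p = 0.0013). The 3 lower genes, named after their values were seen, were Gpx3, Gpx4 and Abcc4. Gpx3, the secreted glutathione peroxidase, averaged 443 ± 152 CPM in the IL-6 KO-labelled libraries and 1054 ± 353 CPM in C57BL/6 (-1.25 ± 0.29, adjusted p = 0.00999). Gpx4, which reduces lipid peroxides in membranes, averaged 153 ± 16.3 CPM in the IL-6 KO-labelled libraries and 285 ± 51.3 CPM in C57BL/6 (-0.89 ± 0.19, adjusted p = 0.00715). Abcc4, an export pump, averaged 15.8 ± 7.24 CPM in the IL-6 KO-labelled libraries and 39.2 ± 4.22 CPM in C57BL/6 (-1.30 ± 0.27, adjusted p = 0.00586). The Gpx3 and Abcc4 calls against BALB/c ended without BALB/c replicate 2 or 3 or replicate 1 or 3 of the IL-6 KO-labelled libraries (adjusted p between 0.0621 and 0.115). The hair marker sums were higher and the muscle marker sums lower in the same IL-6 KO-labelled libraries, and their part was not tested.

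Of 19 tested genes of other conjugation and oxidation enzymes, 3 were higher and 7 lower in the IL-6 KO-labelled libraries than in C57BL/6 (52.6%, where 35.2% of all genes were called). Against BALB/c 3 were higher and 5 lower, and that 42.1% lies near the 37.3% of all genes. Ugt1a6a, which joins phenols to glucuronic acid, averaged 32.7 ± 3.76 CPM in the IL-6 KO-labelled libraries and 14.4 ± 1.35 CPM in C57BL/6 (1.18 ± 0.17, adjusted p = 0.00119). Sult2b1, the cholesterol sulfotransferase of epidermis, averaged 48.2 ± 6.04 CPM in the IL-6 KO-labelled libraries and 25.1 ± 4.28 CPM in C57BL/6 (0.93 ± 0.15, adjusted p = 0.00203). Ephx1, the microsomal epoxide hydrolase, averaged 45.7 ± 12.2 CPM in the IL-6 KO-labelled libraries and 105 ± 2.10 CPM in C57BL/6 (-1.20 ± 0.18, adjusted p = 0.00135). Adh1, an alcohol dehydrogenase that also acts on retinol, averaged 16.3 ± 7.94 CPM in the IL-6 KO-labelled libraries and 52.1 ± 13.5 CPM in C57BL/6 (-1.66 ± 0.31, adjusted p = 0.00334). Of 6 electron donor genes, 0 were called against C57BL/6. Against BALB/c Fdxr was higher (adjusted p = 0.0321) and Cyb5a lower (adjusted p = 0.0432). The Fdxr call ended without BALB/c replicate 2 or 3 or replicate 1 or 3 of the IL-6 KO-labelled libraries (adjusted p between 0.0825 and 0.124). The Cyb5a call ended without BALB/c replicate 1 or 3, C57BL/6 replicate 1 or 3, or replicate 1 or 3 of the IL-6 KO-labelled libraries (adjusted p between 0.0519 and 0.161).

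Near-identical copies set a limit on some members, since a read that fits both genes cannot be assigned. By aligned reference transcripts, 38 of 118 members had a copy at 95% identity or more. In Gstp1 and Gstp2 (98.2% identical over 707 bases) only 56.0% and 44.4% of reads were unique, while in Cyp4f16 and Cyp4f37 (96.1% over 1607 bases) 98.3% and 99.5% were. The promoters of both pairs are shown because the genes of each pair were read differently in these libraries. They cover the 250 bases before the RefSeq start (GRCm38.p6), on the gene's strand. Gstp1 lies at chr19:4037913-4038162 and Gstp2 at chr19:4042222-4042471, both on the minus strand, and Cyp4f16 at chr17:32536307-32536556 and Cyp4f37 at chr17:32621069-32621318, both on the plus strand. Capitals mark the longest run of letters that the genes of a pair share.
Gstp1: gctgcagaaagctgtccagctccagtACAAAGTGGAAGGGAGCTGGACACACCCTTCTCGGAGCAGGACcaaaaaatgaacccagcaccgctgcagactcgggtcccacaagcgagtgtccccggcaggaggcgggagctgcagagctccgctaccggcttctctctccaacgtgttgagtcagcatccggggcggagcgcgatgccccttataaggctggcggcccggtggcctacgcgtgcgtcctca
Gstp2: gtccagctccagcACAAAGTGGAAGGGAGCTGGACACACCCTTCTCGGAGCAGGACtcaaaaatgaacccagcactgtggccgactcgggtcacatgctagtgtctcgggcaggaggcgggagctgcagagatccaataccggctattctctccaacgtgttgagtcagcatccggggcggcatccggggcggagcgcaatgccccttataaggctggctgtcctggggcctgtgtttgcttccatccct
Cyp4f16: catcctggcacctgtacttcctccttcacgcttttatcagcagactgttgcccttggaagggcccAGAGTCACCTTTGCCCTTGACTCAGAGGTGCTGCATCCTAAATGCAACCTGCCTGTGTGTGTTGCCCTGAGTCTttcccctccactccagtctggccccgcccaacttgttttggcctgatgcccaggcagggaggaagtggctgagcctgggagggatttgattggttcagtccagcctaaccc
Cyp4f37: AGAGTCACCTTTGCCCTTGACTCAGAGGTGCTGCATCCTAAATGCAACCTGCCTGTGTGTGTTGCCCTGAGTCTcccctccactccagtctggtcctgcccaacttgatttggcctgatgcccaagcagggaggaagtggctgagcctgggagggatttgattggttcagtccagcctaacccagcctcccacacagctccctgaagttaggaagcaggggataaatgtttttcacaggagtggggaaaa
The Gstp windows were 88.5% identical over 235 aligned bases, with a shared run of 43. The Cyp4f windows were 97.8% identical over 183 aligned bases, with a shared run of 74 that starts 185 bases before the start site in Cyp4f16 and 250 before it in Cyp4f37.

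Gstp2 took 7.46%, 21.1% and 9.86% of the summed Gstp1 and Gstp2 reads in the IL-6 KO-labelled libraries, with 18.6%, 30.1% and 28.1% in BALB/c and 27.3%, 27.5% and 31.5% in C57BL/6. The share was lowest in replicates 1 and 3 of the IL-6 KO-labelled libraries, and replicate 2 fell within the BALB/c range. In uniquely mapped reads it was 7.29%, 16.2% and 8.57% in the IL-6 KO-labelled libraries, with 15.8%, 24.8% and 19.9% in BALB/c and 22.7%, 26.3% and 28.2% in C57BL/6. Gstp2 was lower in the IL-6 KO-labelled libraries against C57BL/6 (-1.86 ± 0.36, adjusted p = 0.0041) and BALB/c (-1.79 ± 0.36, adjusted p = 0.0048), and Gstp1 was not called (adjusted p = 0.179 and 0.0599). With the reads of both copies added, the sum was called lower, with log2 fold changes of -0.64 relative to C57BL/6 (adjusted p = 0.0214) and -0.73 relative to BALB/c (adjusted p = 0.0116).

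Cyp4f37 took 0%, 11.4% and 5.88% of the summed Cyp4f16 and Cyp4f37 reads in the IL-6 KO-labelled libraries, with 23.2%, 27.2% and 44.7% in BALB/c and 34.1%, 46.9% and 16.9% in C57BL/6. The 0% stands for 0 of 56 reads, which allows a share of up to 5.36% from counting error alone. All IL-6 KO-labelled libraries lay below all others, and shares of uniquely mapped reads were within 2 percentage points of these. Cyp4f16 was higher against C57BL/6 (0.74 ± 0.19, adjusted p = 0.0147) and BALB/c (0.61 ± 0.19, adjusted p = 0.031), and Cyp4f37 was lower (-2.22 ± 0.74, adjusted p = 0.0427, and -2.29 ± 0.74, adjusted p = 0.0366). With the copies added, neither comparison was called (0.24, adjusted p = 0.321, and 0.12, adjusted p = 0.605). The Cyp4f16 call against C57BL/6 ended without replicate 3 of the IL-6 KO-labelled libraries (adjusted p = 0.0678), and that against BALB/c without any BALB/c library, C57BL/6 replicate 1 or replicate 1 or 3 of the IL-6 KO-labelled libraries (adjusted p between 0.05 and 0.126). The Cyp4f37 calls ended without BALB/c replicate 2, C57BL/6 replicate 1 or replicate 1 or 3 of the IL-6 KO-labelled libraries, that against C57BL/6 also without C57BL/6 replicate 2 and that against BALB/c also without BALB/c replicate 3 (adjusted p between 0.0547 and 0.121).

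**Figure D5:**
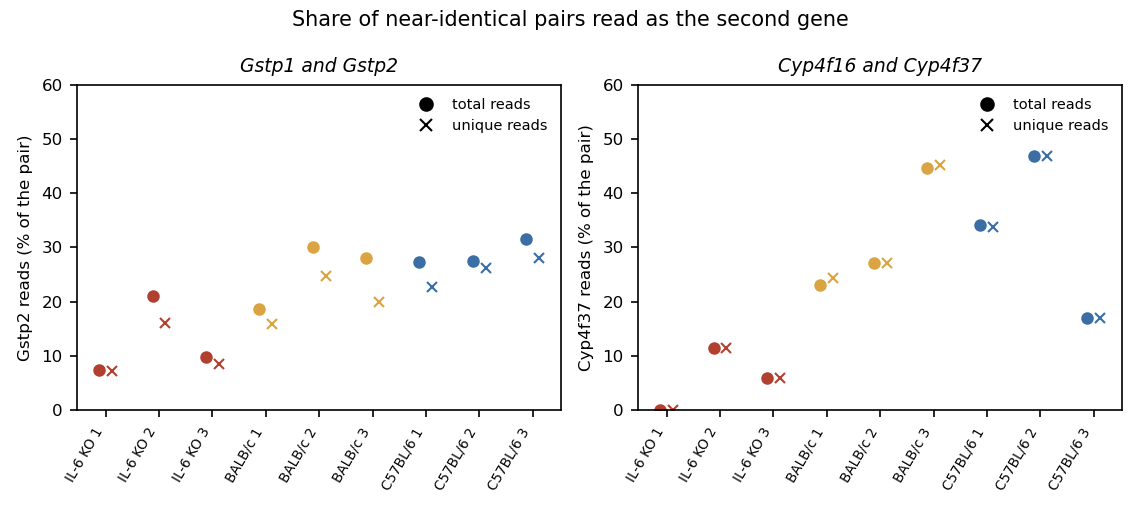
Share of reads given to the second gene of 2 near-identical pairs, in percent of the pair's reads, per library. Circles are total exon reads and crosses uniquely mapped reads, with the IL-6 KO-labelled libraries first, then BALB/c and C57BL/6. Cyp4f37 takes at most 11.4% of total reads in the IL-6 KO-labelled libraries and at least 16.9% elsewhere.

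The comparison of BALB/c with C57BL/6 sets the wild-type strains side by side. Of the 52 tested members, 2 were higher and 1 lower in BALB/c, or 5.77%, where 3.41% of all genes were called (1.63% higher and 1.78% lower), a share near that of all genes. Without BALB/c replicate 2, the library with high Xist reads, 0 members were called higher or lower in BALB/c, where 1.21% of all genes were called. The count was also 0 without BALB/c replicate 1 (1.67% of all genes called) or C57BL/6 replicate 2 (1.93%) or 3 (1.5%). It was 0 as well without replicate 3 of those labelled IL-6 KO (2.1%). With all libraries, 13 members had an unadjusted p under 0.05, DESeq2 called 3 higher and 2 lower where it called 6.17% of its genes, and the median log2 fold change of the members was 0.10, against -0.01 over all genes. Gsta4 had 33.4, 16.1 and 13.0 CPM in BALB/c, against 4.30, 3.88 and 6.13 CPM in C57BL/6 (2.13 ± 0.43, adjusted p = 0.032). Cyp3a57 was higher in BALB/c by 1.82 ± 0.39 (adjusted p = 0.0404). Cyp2f2 was lower in BALB/c (-2.22 ± 0.49, adjusted p = 0.0433), at the levels given above. The groups did not overlap in any of these genes. All 3 calls rest on few libraries: the Cyp3a57 call ended without any 1 library other than replicate 1 or 2 of those labelled IL-6 KO (adjusted p between 0.0744 and 0.154). The Gsta4 call ended without BALB/c replicate 1 or 2, any C57BL/6 library or replicate 3 of those labelled IL-6 KO (adjusted p between 0.0522 and 0.113). The Cyp2f2 call ended without any BALB/c library, C57BL/6 replicate 2 or 3, or replicate 1 or 3 of those labelled IL-6 KO (adjusted p between 0.0512 and 0.153). Cyp1a1 was higher in every BALB/c library than in any C57BL/6 library and did not pass the test (1.05 ± 0.34, adjusted p = 0.14), and the same held for Mgst2, which makes leukotriene C (1.23 ± 0.30, adjusted p = 0.0602). Mgst2 was called with DESeq2 (adjusted p = 0.0104) and without replicate 2 of those labelled IL-6 KO (adjusted p = 0.025). Groups did not overlap in 13 higher and 6 lower members, or 36.5%, where 30.2% of all genes did not overlap.

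BALB/c replicate 1 gave the highest BALB/c value in 27 of 52 tested members, Gsta4 and Gstz1 among them. Its 5 adipocyte markers summed to 6117 CPM, against 1363 and 1374 CPM in the other BALB/c libraries, and its 8 sebocyte markers to 4962 CPM, against 1217 and 1358 CPM. Their part in the BALB/c values was not tested. Of the companion genes, Hsd17b7 was the only 1 called between the strains, at 51.1 ± 8.74 CPM in BALB/c and 24.7 ± 4.49 CPM in C57BL/6 (1.05 ± 0.18, adjusted p = 0.0152). That call ended without BALB/c replicate 1 or 3 or C57BL/6 replicate 2 or 3 (adjusted p between 0.0507 and 0.0745).

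The promoter windows of members were also searched, on both strands, for 3 other motifs. TGACNNNGC, the core of the antioxidant response element bound by Nfe2l2, occurred in 8.85% of member windows and in 12.4% of all windows. The retinoic acid direct repeat, AGGTCA followed by AGGTCA after any 5 bases, occurred in 0 of 113 member windows and in 3 of 32851 windows overall. The vitamin D direct repeat, the same letters with a gap of 3 bases, occurred in 0 of 113 and in 2 of 32851. None of these counts was tested, and the absence of letters from a window says nothing about the factor.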

How the data were processed

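Each library came as a deposited table of raw counts per gene: total exon reads and uniquely mapped exon reads, per the file headers. The authors' RPKM values, scaled to gene length and library size per the file headers, were used only to order genes within a group. Reads were mapped to GRCm38, per the submitters' processing notes. The aligner is not given in the sources used here. Replicate 1 of C57BL/6 shares its file with copies of the other replicates' tables, which were left aside there.

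The counts entered edgeR 4.0.16 (R 4.3.3) as total exon reads: 1 model of 9 libraries, filterByExpr (minimum count 10, minimum total 15), TMM scaling, the two-sided quasi-likelihood F test, and Benjamini-Hochberg adjustment over 14415 genes with a threshold of 0.05. A log2 fold change is given ± SE (its size over the square root of F). Ratios for genes with 1 to 3 reads in a group carry an exact 95% interval for counting error only. Total-read depth was lower in the IL-6 KO-labelled libraries. Counts were also simulated with 200 changed genes. Of 14254 genes for those libraries against C57BL/6, 32% of those changed 2-fold and 87% of those changed 4-fold were recovered, with 5.56% false calls. Of 14253 for BALB/c against C57BL/6, 46% and 92% were recovered, with 6.76% false calls. In the data 35.2% and 3.41% of all genes were called, more than were changed here, so these rates do not measure recovery in the data.

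Copies were found by aligning GENCODE transcripts with blastn 2.17.0 (at least 95% identity over 200 bases and 40% of the shorter). Promoter sequences are RefSeq's. DESeq2 1.42.0, RLE scaling, no filter, uniquely mapped reads, a replicate block, models of only the groups compared, added copies and leaving out each library were tried. Python 3.11.15, pandas 2.3.3 and matplotlib 3.10.9 made tables and figures.

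Members, gene lists and the naming rule were chosen with earlier results of these data known. The rule names members with a mean of at least 10 CPM, up to 10 per direction among called members reaching 1 CPM in the higher group, the members of the hormone, sterol and Ahr groups, and up to 4 called genes of each of 6 companion lists. Gstm7, Cyp2j9 and other called members beyond it were named after their values were seen. The companion gene Sts was not analysed here.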

Additional observations from a re-analysis of the deposited data

How the results depend on the processing

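Of 3621 values of named genes under the alternatives, 3354 kept their side of the threshold, 222 lost a call and 45 gained one. Among values called in either fit, 0 reversed direction. Direction was not compared where neither fit made a call, and some of those values changed sign. The model of only the groups compared lost 19 of these calls, and leaving out replicate 2 of the IL-6 KO-labelled libraries gained 22. Leaving out 1 library gave 0 to 3 higher and 0 to 2 lower members for BALB/c against C57BL/6, 2 to 4 higher and 8 to 27 lower for the IL-6 KO-labelled libraries against C57BL/6, and 5 to 7 higher and 14 to 31 lower for those libraries against BALB/c. In the same fits and order, 1.13% to 6.62%, 22.1% to 46.1% and 22.5% to 47.8% of all genes were called. These shares of all genes, and those in the rest of this paragraph, count both directions. Of the other alternatives, DESeq2 called 2 members lower in BALB/c than in C57BL/6 (1 with edgeR), where it called 6.17% of its genes (3.41% with edgeR). A model of only the groups compared called 15 members lower in the IL-6 KO-labelled libraries than in BALB/c (24 with all groups in the model). It called 34.3% of all genes (37.3% with all groups). Replicate numbers do not pair the libraries: deviations of same-numbered libraries correlated between -0.212 and 0.0617, though each IL-6 KO-labelled library matched its own number best against BALB/c. With a replicate block, 0 members were higher in BALB/c than in C57BL/6 (2 without it), where 1.77% of all genes were called (3.41% without it). RLE scaling moved the median fold change by at most 0.01 on the log2 scale. The causes were not tested. At these depths 66 of 118 members had too few reads for a test, 37 of them with 0 reads in every library.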
